A study of Mus musculus with 2 samples.

Results

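The long intergenic non-coding RNA (lincRNA) transcripts of differentiated female germline stem cells (FGSCs) were described. They were chosen by annotation alone, as the Ensembl transcript IDs of the count lists whose transcript type is lincRNA in GENCODE M21, without H19, Meg3, Rian and Mirg. There were 8816 such transcripts of 5827 genes among 129311 IDs listed, of which 76066 were Ensembl transcript IDs. The data were 2 libraries of 1 group, replicates 1 and 2, made by a Smart-seq protocol from polyadenylated RNA captured with poly-T primers, each from 5 to 8 cells. The cells were female germline cells of the CD-1 strain, labelled as being in premeiotic interphase. They had received 10 µM retinoic acid and 10 ng/mL BMP4 for 3 days on a layer of granulosa cells, in medium without GDNF, EGF and LIF. Undifferentiated FGSCs were not analysed here, so nothing below is an effect of differentiation, and no test between groups was possible. Nothing in the labels says whether the replicates came from separate cultures.

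LincRNAs are transcripts longer than a short RNA that lie between protein-coding genes and carry no long reading frame. Many are spliced and polyadenylated by the same machinery as messenger RNA, most are present at low levels and in few cell types, and a small number, such as Malat1, are among the most abundant RNAs of the nucleus. Their best known members build nuclear bodies (Neat1), coat the inactive X chromosome (Xist), or serve as the primary transcripts of small nucleolar RNAs and microRNAs.

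Replicate 1 held 1517151 counts and replicate 2 held 12442, so that 1 count stood for 0.659 counts per 1000000 (CPM) in replicate 1 and for 80.4 CPM in replicate 2. The libraries thus differed 122-fold in their totals. Replicate 2 also had nearly the same counts per kilobase for every non-coding transcript type, as given below, so its CPM values rest on few counts and were not taken as expression levels. A gene without a count could have held up to 3 counts, which is 1.98 CPM in replicate 1 and 241 CPM in replicate 2. Smart-seq reads carry no molecular identifiers, so this limit and all intervals below are 95% intervals of counting error only. Of 14 germ cell markers, 10 had no count in replicate 1 and 12 had none in replicate 2, Ddx4 and Dazl among them in both libraries. These numbers include the counts on protein accessions listed in each marker's place. The markers were assigned at most 12174 and 13 counts, of which 11921 and 8 lay in the interval of Ifitm3. Stra8 was at 0 in both libraries, and Sycp3 held at most 2 counts in replicate 1 and 0 in replicate 2. The study reported expression of both genes in FGSCs treated with retinoic acid, by RT-PCR and, for Stra8, also by immunofluorescence. These are other measures than counts from libraries of few cells, and whether the results differ was not tested. Of 12 fibroblast markers, 1 had no count in replicate 1 and 6 in replicate 2, with at most 5048 and 23 counts. Only 7 and 3 of them could hold at least 3 counts. In replicate 1, Dcn held at most 2281 counts, Col1a2 910, Pdgfra 726, S100a4 539, Col1a1 401, Col3a1 180 and Fap 6. Vim, Thy1 and Fn1 held at most 1 count each there, Postn 2 and Lum 0. Of 15 granulosa cell markers, 4 and 10 had no count, with at most 1429 and 8 counts. At least 3 counts were possible for 11 and 1 of these 15. Among the granulosa cell markers, Amh and Cyp19a1 were at 0 in both libraries. In replicate 1, Kitl held at most 453 counts, Fst 229, Gja1 224, Amhr2 216, Inhbb 157 and Foxl2 18. The part of other cells in the lincRNA counts was not tested. Reads on bases shared by several transcripts were largely uncounted, and a member at 0 may still have been transcribed.

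Sequences of the members on which the values below turn are shown first. The counted transcripts of Malat1, Neat1, Gm26917 and Gm20342 each have 1 exon. Poly-T primers anneal to runs of A, so the longest run of A within each of these models is shown in capitals, with 50 bases on either side, 5′ to 3′ in the direction of the transcript. The windows lie in GRCm38 at chr19:5795938-5796049 (minus strand, Malat1-201), chr19:5835884-5835990 (minus strand, Neat1-201), chr17:39845086-39845189 (plus strand, Gm26917-202) and chr1:63117642-63117776 (plus strand, Gm20342-201), all exonic.
Malat1-201: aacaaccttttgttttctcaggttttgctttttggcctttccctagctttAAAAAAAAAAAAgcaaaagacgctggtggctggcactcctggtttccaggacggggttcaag
Neat1-201: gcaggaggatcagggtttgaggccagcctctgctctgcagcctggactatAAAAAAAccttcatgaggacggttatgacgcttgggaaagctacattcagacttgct
Gm26917-202: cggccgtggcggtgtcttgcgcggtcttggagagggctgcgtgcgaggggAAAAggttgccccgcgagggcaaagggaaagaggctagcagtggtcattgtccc
Gm20342-201: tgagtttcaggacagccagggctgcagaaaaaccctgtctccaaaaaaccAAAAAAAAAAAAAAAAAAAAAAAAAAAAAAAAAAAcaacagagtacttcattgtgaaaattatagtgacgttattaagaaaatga
The run held 12 A in Malat1-201 and ended 298 bases before the 3′ end of a model of 6983 bases. It held 35 A in Gm20342-201, a model of 9720 bases, and lay 9111 bases from the 3′ end. The longest run of Neat1-201, a model of 20771 bases, held 7 A. Gm26917-202, of 3329 bases, had no run longer than 4 A and a GC content of 69.1%, against 42.5% for Malat1-201.

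Promoter windows from RefSeq (GRCm38.p6), covering 250 bases before to 50 bases after a start site, are shown for 3 members that differ in the number of CG dinucleotides, which are in capitals. Malat1 (chr19:5802623-5802922, minus strand) had 10 CG pairs and was the member with most counts in replicate 1. Snhg18 (chr15:32244613-32244912, minus strand) had 31 and was counted in replicate 1 only. 1700061J23Rik (chr11:23151890-23152189, plus strand) had 1 and was counted in replicate 2 only.
Malat1: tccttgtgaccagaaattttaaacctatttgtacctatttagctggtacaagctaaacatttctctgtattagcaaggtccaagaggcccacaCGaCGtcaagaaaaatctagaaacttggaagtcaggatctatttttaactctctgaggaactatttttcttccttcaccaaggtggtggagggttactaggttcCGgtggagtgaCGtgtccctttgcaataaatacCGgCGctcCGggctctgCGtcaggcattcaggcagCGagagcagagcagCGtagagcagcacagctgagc
Snhg18: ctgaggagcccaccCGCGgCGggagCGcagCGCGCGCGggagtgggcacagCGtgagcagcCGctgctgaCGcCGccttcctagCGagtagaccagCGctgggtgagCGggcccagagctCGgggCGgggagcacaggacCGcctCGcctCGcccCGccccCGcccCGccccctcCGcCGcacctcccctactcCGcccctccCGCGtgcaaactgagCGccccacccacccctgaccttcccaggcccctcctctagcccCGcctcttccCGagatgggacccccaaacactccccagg
1700061J23Rik: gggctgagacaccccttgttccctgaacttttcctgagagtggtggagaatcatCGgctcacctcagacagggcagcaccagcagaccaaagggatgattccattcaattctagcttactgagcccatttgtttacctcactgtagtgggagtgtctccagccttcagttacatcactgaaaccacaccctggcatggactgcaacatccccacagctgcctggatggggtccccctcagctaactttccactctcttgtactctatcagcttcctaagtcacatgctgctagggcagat
CG-rich windows are typical of genes used in many cell types, and their use by the members is given further on.

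LincRNA transcripts held 10562 of the 1517151 counts of replicate 1, which is 0.696% (Wilson interval 0.683% to 0.710%). They held 793 of the 12442 counts of replicate 2, which is 6.37% (5.96% to 6.82%). The share was thus higher in replicate 2, and the intervals did not overlap. Scaled to the total of replicate 2, the lincRNA counts of replicate 1 would have numbered 86.6. Of the 5827 genes, 451 (7.74%) were counted in replicate 1 and 324 (5.56%) in replicate 2. Over all IDs listed, 11.9% were counted in replicate 1 and 3.29% in replicate 2. By transcript, 473 lincRNA members (5.37%) were counted in replicate 1, below the share of all IDs, and 326 (3.70%) in replicate 2, close to it. At the total of replicate 2, the counts of replicate 1 would cover 30.5 lincRNA transcripts, against the 326 seen. The same expectation over all IDs was 3375, against 4259 seen, but most counts of that list lie on protein accessions. Other non-coding types shared the excess. The counts of replicate 2 were 9.16 times those of replicate 1 scaled to its total for lincRNA transcripts, 10.9 times for antisense transcripts, 9.68 times for retained introns and 17.5 times for TEC models, which await experimental proof. The ratio was 1.60 for processed pseudogenes and 0.567 for protein accessions, so the excess was not particular to lincRNAs.

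Most detected genes rested on very few counts. In replicate 1, 267 of the 451 genes had 1 count, 146 had at least 3, 91 had at least 10 and 11 had at least 100. In replicate 2, 187 of the 324 genes had 1 count, 80 had at least 3, 7 had at least 10 and 1 had at least 100. A count in both libraries was found for 51 genes (0.875%) and 46 transcripts (0.522%), against 1.33% of all IDs. The 51 genes made up 11.3% of the genes counted in replicate 1 and 15.7% in replicate 2, and 39 of them stood at 1 count in at least 1 library. No count in either library was found for 5103 genes, 87.6% of the members. Across the 5827 genes, log2(FPKM + 1) of both libraries gave a Pearson r of 0.041 (Spearman rho 0.069), where most points share the value 0. Over the 51 genes counted in both, r was 0.17 and rho 0.28. These are descriptions over genes of 2 libraries of very unequal depth.

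**Figure D1:**
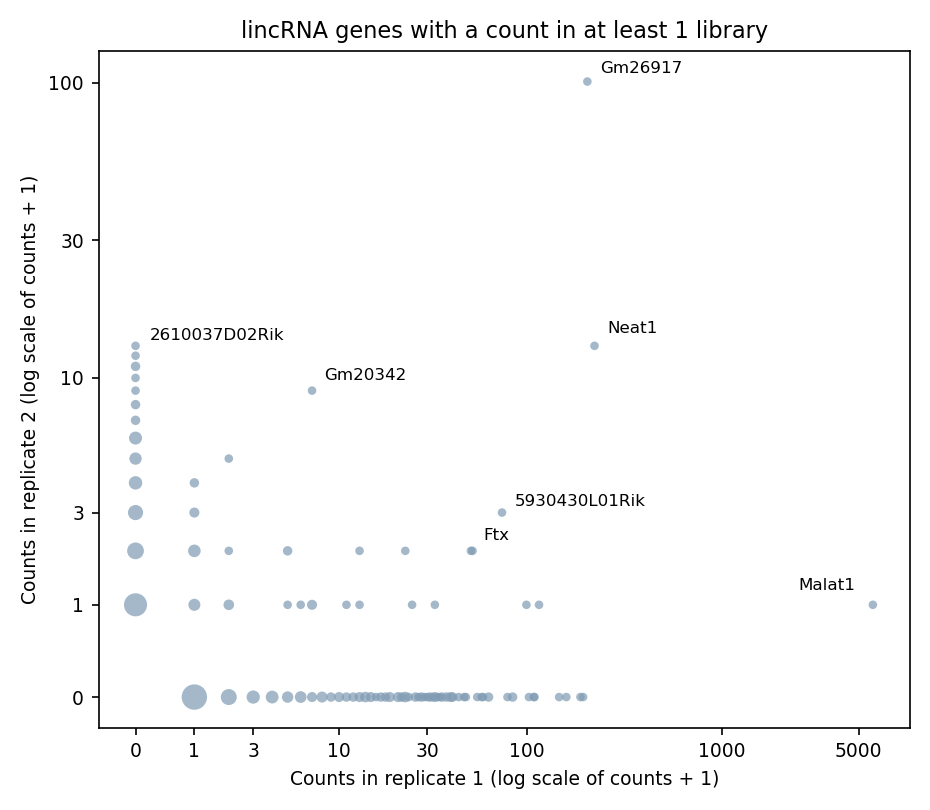
Counts of each lincRNA gene in replicate 1 (x axis) and replicate 2 (y axis), both on a log scale of counts + 1, for the 724 genes with a count in at least 1 library. Point area grows with the number of genes at that pair of values, and most genes lie on an axis, at 0 in the other library.

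A single nuclear RNA held most of the lincRNA counts of replicate 1. Malat1, a nuclear RNA of splicing speckles (chr19:5795690-5802672, minus strand), had 5923 counts in replicate 1, 56.1% of all its lincRNA counts, and 1 count in replicate 2. These are 3904 CPM and 80.4 CPM. All of these counts were on Malat1-201, the single-exon model. Scaled to the total of replicate 2, Malat1 would have had 48.6 counts where 1 was seen, so its CPM was 48.6-fold higher in replicate 1 (exact interval 8.71 to 1919). Neat1, the RNA around which paraspeckles form (chr19:5824708-5845478, minus strand), had 222 and 13 counts, or 146 and 1045 CPM. Its CPM was 7.14-fold higher in replicate 2 (3.74 to 12.5), the opposite order to Malat1. For all lincRNA counts this ratio was 9.16, within the interval of Neat1, and it was larger without Malat1 and Gm26917. The order of Neat1 was thus that of the lincRNA counts as a whole, and no difference particular to Neat1 was shown. Miat, another nuclear RNA, was at 0 in both libraries and had only 11 exonic bases that no other transcript shares.

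Gm26917 was the member with most counts in replicate 2, and the only one with at least 100 counts there. It is a GC-rich model (chr17:39843013-39846341, plus strand) that lies just before Gm42418 and AY036118, models that overlap the ribosomal RNA gene model CT010467.1. Gm26917 had 204 counts in replicate 1 and 101 in replicate 2, or 134 and 8118 CPM. This is 12.7% of the lincRNA counts of replicate 2 against 1.93% of those of replicate 1, and a CPM 60.4-fold higher in replicate 2 (47.1 to 77.0). CT010467.1 had 30602 and 112 counts, so the order of the libraries was the reverse for the ribosomal RNA model beside it. Gm42418 and AY036118 were at 0 in both, with 9 and 0 exonic bases of their own.

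Only 4 lincRNA genes had at least 3 counts in both libraries: Neat1, Gm26917, 5930430L01Rik and Gm20342. 5930430L01Rik (chr5:148990056-148995223, minus strand) had 74 and 3 counts, or 48.8 and 241 CPM, and the interval of the ratio of replicate 2 to replicate 1, 0.997 to 15, included equal levels. Gm20342 (chr1:63117118-63126837, plus strand) had 7 and 9 counts, or 4.61 and 723 CPM. The ratio of the CPM of replicate 2 to that of replicate 1 was 157 (52.0 to 495). Of the 51 genes counted in both libraries, 50 had the higher CPM in replicate 2, where a single count already amounts to 80.4 CPM, and Malat1 was the exception.

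Below Malat1, the leading members of replicate 1 were spread over a range of 79 to 222 counts, and those without a count in replicate 2 correspond to at most 1.59 counts at its total. 2900097C17Rik, the mouse Norad, a cytoplasmic RNA that binds Pumilio proteins and is linked to chromosome stability (chr2:156388065-156392979, minus strand), had 188 and 0 counts. Its 124 CPM corresponds to 1.54 counts at the total of replicate 2. Of the 31-base stretches of its counted transcript, 44.7% also occur in another gene, and the part of such sequence in its counts was not tested. 1700020I14Rik, also called Oip5os1 or Cyrano, a conserved RNA with a site for miR-7 (chr2:119594297-119607502, plus strand), had 146 and 0 counts, or 96.2 CPM in replicate 1. Ptgs2os2, on the strand opposite to the prostaglandin synthase gene Ptgs2 and 64917 bases from its start, had 108 and 0 counts. Snhg18, a snoRNA host gene that starts 148 bases from Sema5a on the other strand, had 79 and 0 counts, or 52.1 CPM. A530013C23Rik had 115 and 1 counts and Gm49797 had 99 and 1, which are levels of 75.8 and 80.4 CPM and of 65.3 and 80.4 CPM, and their intervals overlapped.

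The remaining members among the 15 with most counts in replicate 1 have no role that is well known. AC102496.1 had 194 counts, 4632415L05Rik 159, AU020206 109 and AL805899.2 102, all with 0 in replicate 2. Of the 31-base stretches of AC102496.1, 57.9% also occur in another gene, so its counts may include reads of similar sequence, which was not tested. Gm19325 and Gm43672 had 84 counts each and 0 in replicate 2. Each of these levels, between 55.4 and 128 CPM, is below the 241 CPM that no count in replicate 2 still allows, so a difference between the libraries was not detectable for them.

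The leading members of replicate 2 were chosen for their counts there, so their order between the libraries is a description only. 2610037D02Rik (chr15:96134819-96284495, minus strand), which starts 3023 bases from the chromatin remodeller gene Arid2, had 0 counts in replicate 1 and 13 in replicate 2, or 1045 CPM (611 to 1787), where 0 counts in replicate 1 allow up to 1.98 CPM. Gm45389 had 12 counts, 1700061J23Rik and E330013P04Rik had 11 each, and Gm30301 had 10, all with 0 in replicate 1. Gm38577, 1700042G15Rik, Gm34923, Gm28874, Gm44644, 1700017G19Rik and 4930445E18Rik had 6 to 9 counts, with 0 in replicate 1. The last 2 of these were among 12 genes at 6 counts. Over all members, 70 of the 80 genes with at least 3 counts in replicate 2 had none in replicate 1. Conversely, 124 of the 146 genes with at least 3 counts in replicate 1 had none in replicate 2.

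**Figure D2:**
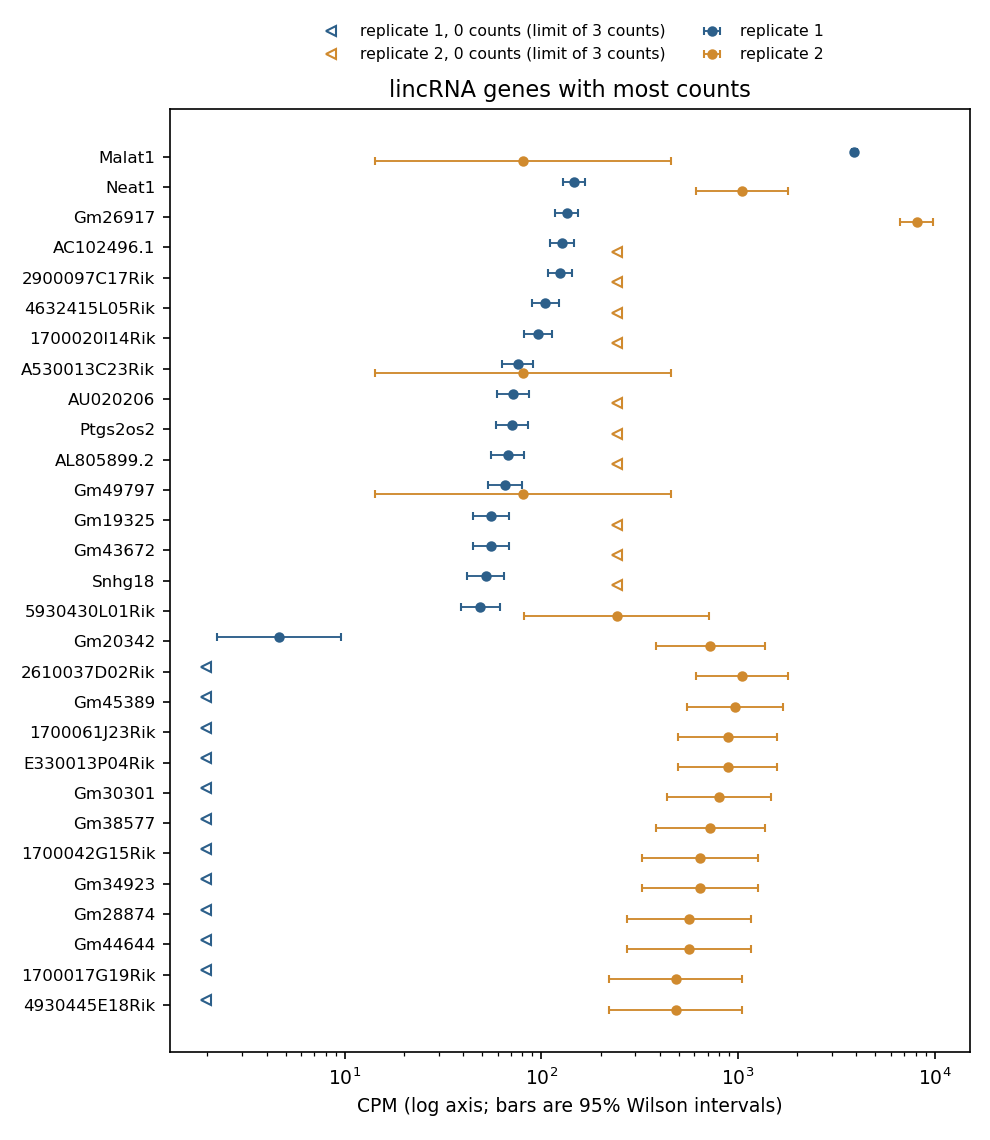
CPM (log axis) of the lincRNA genes with most counts in either library or with at least 3 counts in both. Points are replicate 1 (blue) and replicate 2 (orange) with 95% Wilson intervals, and open triangles mark a library with 0 counts at the level of 3 counts (1.98 and 241 CPM). From 2610037D02Rik downwards all members were seen in replicate 2 only.

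The libraries also differed in how the counts were spread over genes. The 10 genes with most counts held 69.8% of the lincRNA counts in replicate 1, compared with 24.8% in replicate 2. In replicate 1, Malat1 alone held more than all other members together, whereas the larger part of those of replicate 2 was spread over 49 genes. Without Malat1 and Gm26917, the 10 leading genes held 32.5% and 15.1%, so the order of the libraries remained. The lincRNA share of the library was then 0.292% in replicate 1 and 5.55% in replicate 2.

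**Figure D3:**
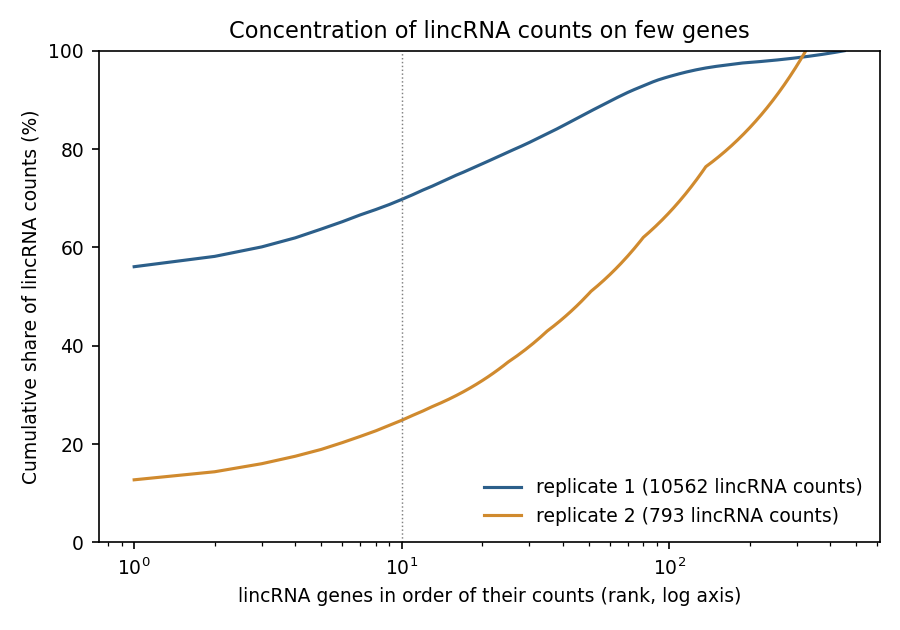
Cumulative share of lincRNA counts (%) against the rank of the gene (log axis) in replicate 1 (blue) and replicate 2 (orange). The dotted line marks 10 genes, where the curves stand at 69.8% and 24.8%.

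Members of known function were grouped by role, in 11 lists that held 56 lincRNA genes of the count lists. A count was found for 17 of them (30.4%) in replicate 1, for 8 (14.3%) in replicate 2 and for 6 in both, while 37 had none. Over all lincRNA genes the shares were 7.74% and 5.56%, but the listed members were chosen as well-known genes. Of these 37, 16 had fewer than 500 exonic bases of their own. The 37 had a median of 627 own bases, against 3000 for the members with a count.

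Of 12 snoRNA host genes, 3 were counted in replicate 1 and 0 in replicate 2. These genes carry snoRNAs in their introns, and several are known for abundant, short-lived spliced RNAs. Snhg18 had 79 counts, Snhg17 and Snhg6 had 2 each, and Gas5, Snhg1, Snhg5, Snhg8, Snhg10, Snhg12, Snhg20, Dancr and Epb41l4aos were at 0. Gas5 had 251 exonic bases of its own, Snhg1 and Snhg12 had 12 each and Dancr had 0, whereas Snhg20, also at 0, had 1448 and Snhg18 had 1486. Of 6 genes on the list of microRNA hosts, only Mir17hg, the precursor of the miR-17 to miR-92 cluster, had a count, with 3 and 0. That list includes Mirt1, whose role as a host was not checked.

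Of 3 RNAs of the X inactivation centre, Xist and Ftx had counts in both libraries and Jpx in neither. Xist, which coats the inactive X chromosome in female cells, had 7 counts in replicate 1 and 1 in replicate 2, or 4.61 and 80.4 CPM. Ftx (chrX:103560907-103623790, minus strand), which lies in the same centre and acts on Xist, had 52 and 2 counts, or 34.3 and 161 CPM. Per kilobase of exon, Ftx was at 3.36 FPKM and Xist at 0.257 FPKM in replicate 1, and at 15.8 and 4.48 FPKM in replicate 2. The 52 counts were on transcript Ftx-205 and the 2 counts on Ftx-203. Each of these has 11 exons.

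The other role lists held few counts per member apart from the list named cytoplasmic decoys and sponges. Of its 3 members, 2900097C17Rik and 1700020I14Rik held 334 counts in replicate 1 and 0 in replicate 2. The third, Lncpint, was at 0 and is also on the immune list. Where in the cell these RNAs lie was not measured, and Lncpint is not put forward as a cytoplasmic RNA. Of 11 pluripotency-associated transcripts, Platr22 had 23 and 0 counts and 10 were at 0. Of 5 RNAs of mesoderm, heart and muscle, Bvht had 21 and 0 counts, and Fendrr and Carmn were among the 4 at 0. Of 3 RNAs linked to p53 and growth, Trp53cor1 (lincRNA-p21) had 6 and 1 counts, Pvt1 1 and 0, and Crnde none. Of 6 neural RNAs, Rmst had 0 and 3 counts, C130071C03Rik 0 and 1, and Gm2694 1 and 0. Of 4 immune RNAs, Ptgs2os2 was the only one with a count.

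Detection rose with the number of exonic bases that belong to no other transcript, here called own bases. None of the 1203 lincRNA transcripts without own bases had a count in either library. In replicate 1, the share with a count was 4.04% at over 200 to 500 own bases, 9.38% at over 1000 to 2000, and 45.5% (20 of 44) above 5000. In replicate 2 the shares were 2.28%, 5.38% and 29.5% (13 of 44). In all, transcripts with a count had a median of 1057 own bases in replicate 1 and 1134 in replicate 2, against 458 and 462 without. Of 151 genes with several listed transcripts and a count in replicate 1, 132 had counts on 1 transcript only.

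Counts per kilobase of own bases were therefore compared between lincRNAs and other transcript types. In replicate 1, lincRNA transcripts had 1.49 counts per kilobase (exact Poisson interval 1.47 to 1.52), or 0.628 (0.610 to 0.647) without Malat1 and Gm26917. Processed pseudogenes had 9.58, processed transcripts 2.00, antisense transcripts 1.20 and TEC models 0.831. Protein accessions had 41.4 over the coding transcripts that are not listed under their own ID. In replicate 2, lincRNA transcripts had 0.112 (0.105 to 0.120), antisense transcripts 0.107 (0.0964 to 0.119), retained introns 0.119 (0.114 to 0.125) and processed pseudogenes 0.126 (0.118 to 0.135). Across 8 non-coding types, the highest density was 11.5 times the lowest in replicate 1 and 1.19 times the lowest in replicate 2. Protein accessions had 0.193 in replicate 2. With Malat1 and Gm26917, lincRNA transcripts lay within the range of the other types in both libraries. Without them, their density in replicate 1 was below the lowest other type, TEC. In replicate 2 it was then 0.0979 (0.0907 to 0.105), below that of antisense transcripts, with overlapping intervals. The other types kept their own leading genes, so these ranks without Malat1 and Gm26917 were not compared on equal terms.

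**Figure D4:**
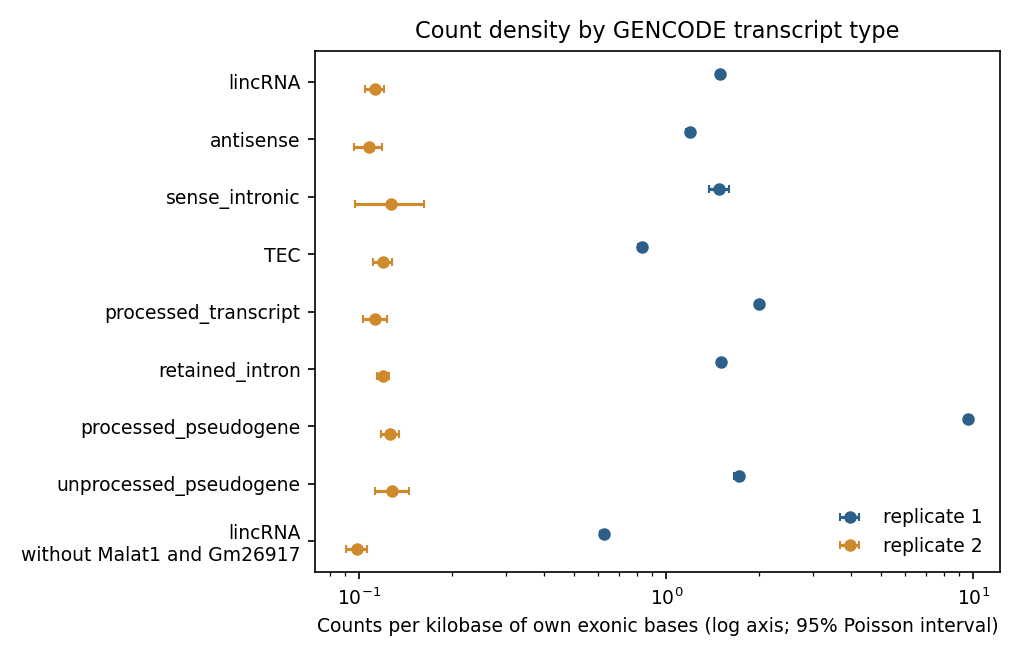
Counts per kilobase of own exonic bases (log axis) for 8 GENCODE transcript types and for lincRNA without Malat1 and Gm26917, in replicate 1 (blue) and replicate 2 (orange), with 95% Poisson intervals. The types lie between 0.831 and 9.58 in replicate 1 and between 0.107 and 0.128 in replicate 2.

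Promoter windows gave a further difference between the libraries. A RefSeq window was matched by name and place for 2030 of the 5827 lincRNA genes, and 346 of these (17%) held at least 10 CG pairs, against 45.8% of the 27025 genes with a window. In replicate 1, 68 of the 346 genes (19.7%, 15.8% to 24.2%) with at least 10 CG pairs had a count, and 126 of the 1684 others (7.48%, 6.32% to 8.84%). In replicate 2 the shares were 25 of 346 (7.23%, 4.94% to 10.4%) and 100 of 1684 (5.94%, 4.91% to 7.17%). Without Malat1 and Gm26917, counts per kilobase of own bases were 2.26 and 0.310 in replicate 1, and 0.0960 and 0.0947 in replicate 2. Detection was higher at CG-rich windows in replicate 1, and the intervals overlapped in replicate 2. At least 10 counts were reached in replicate 1 by 26 genes with CG-rich windows and by 16 of the others. Snhg18, Oip5os1 (15 CG pairs), AU020206 (15) and Ptgs2os2 (12) were among the former. CG pairs were counted once for both strands, since CG reads the same on either.

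Neighbouring genes gave a difference in the same direction in replicate 1 but not in replicate 2. For 408 lincRNA genes, the nearest protein-coding start lay back to back, on the other strand and within 5000 bases upstream. Genes whose nearest protein-coding start on the other strand lay downstream were counted among the others. In replicate 1, 55 of these (13.5%, 10.5% to 17.1%) had a count, against 396 of 5419 others (7.31%, 6.64% to 8.03%). In replicate 2, 19 (4.66%, 3.00% to 7.16%) and 305 (5.63%, 5.05% to 6.27%) had one, with overlapping intervals. Snhg18 beside Sema5a, Gm43672, which starts 510 bases from Tbl1xr1, and A530013C23Rik, which starts 1355 bases from Tmem189, are such pairs in replicate 1. 2610037D02Rik beside Arid2 and Gm38577, which starts 1560 bases from Tmem132e, are such pairs in replicate 2.

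**Figure D5:**
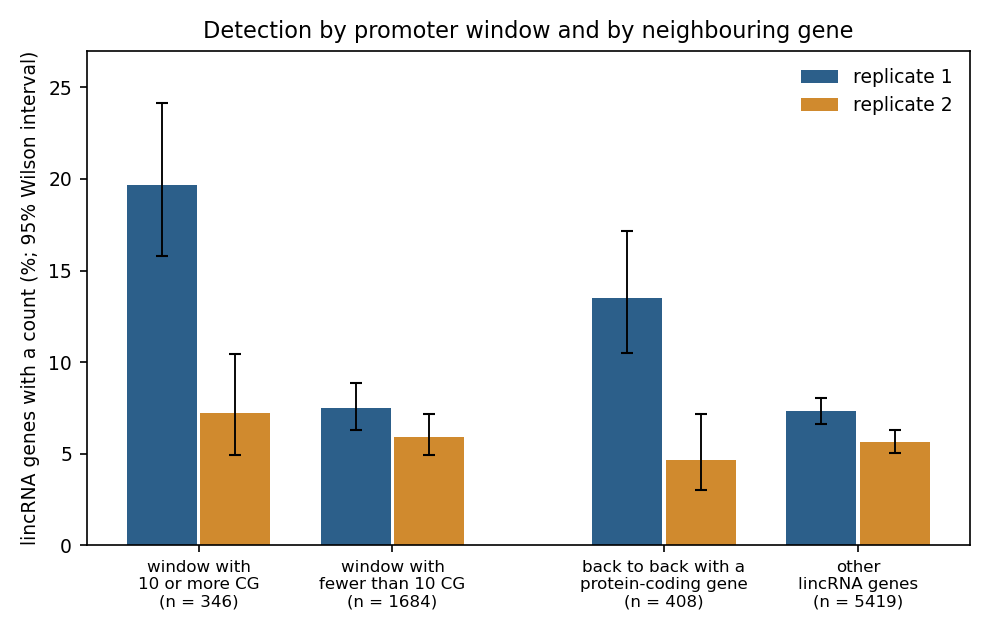
Share of lincRNA genes with a count (%, bars, with 95% Wilson intervals) in replicate 1 (blue) and replicate 2 (orange). Genes are grouped by the CG pairs of the promoter window and by a back-to-back protein-coding start within 5000 bases on the other strand. The bars of replicate 1 reach 19.7% and 13.5% at CG-rich windows and beside protein-coding genes, and those of replicate 2 lie between 4.66% and 7.23%.

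Overlap with other genes touched part of the counts. Transcripts whose exons share bases with exons of another gene on the same strand held 62.2% of the lincRNA counts in replicate 1, nearly all of it Malat1, which shares 86 bases with the model Gm27694. They held 3.66% in replicate 2. Without Malat1, 648 and 28 counts were on such members. Members that overlap only exons on the opposite strand held 362 and 66 counts, and those without overlap 3629 and 698. The libraries do not keep the strand, and reads on bases shared with another gene were largely uncounted.

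Detection was also compared by internal runs of A. Among transcripts with at least 2000 own bases, those with a run of 15 A or more had a count in 10 of 40 cases (25%, 14.2% to 40.2%) in replicate 1 and in 9 of 40 (22.5%, 12.3% to 37.5%) in replicate 2. Without such a run, the shares were 11.9% (10.0% to 14.2%) and 10.4% (8.64% to 12.6%) of 929 transcripts. At 1000 to 2000 own bases, the shares with a run were 6 of 34 (17.6%, 8.35% to 33.5%) in both libraries, against 9.16% (7.73% to 10.8%) and 4.99% (3.95% to 6.29%) without. At 500 to 1000 own bases the shares were 2 of 25 (8%) with a run and 5.45% without in replicate 1, and 1 of 25 (4%) and 4.36% in replicate 2. Below 500 own bases they were 3 of 37 (8.11%) and 2.52% in replicate 1, and 2 of 37 (5.41%) and 1.34% in replicate 2. The intervals overlapped in both longer classes of replicate 1 and in the longest class of replicate 2, and did not in the 1000 to 2000 base class of replicate 2. Counts per kilobase went the other way in some classes of replicate 1. At 500 to 1000 own bases they were 0.117 with a run and 0.446 without it. They were higher with a run at 1000 to 2000 own bases (3.85 against 0.813) and below 500 (2.47 against 0.749). Gm49797-201 alone held 95 of the 187 counts with a run at 1000 to 2000 own bases. In the longest class they were 0.246 with a run and 0.528 without it, Malat1 and Gm26917 left out. In replicate 2 they were 0.208 and 0.0787, and Gm20342, with the run of 35 A shown above, belongs to that class.

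Counts per kilobase also differed between chromosomes, where they rested on few genes or few counts. Without Malat1 and Gm26917, counts per kilobase of own bases varied over the 19 autosomes from 0.157 to 2.14 in replicate 1 and from 0.0495 to 0.264 in replicate 2. On chromosome 2, the highest in replicate 1, 2900097C17Rik, 1700020I14Rik and A530013C23Rik held 188, 146 and 115 of 606 counts. In replicate 2 the lowest and highest autosomes, 18 and 19, had 13 and 45 counts. The X chromosome had 89 counts (0.637 per kilobase) and 5 counts (0.0358 per kilobase), the latter below the lowest autosome. No interval was computed for these densities, and an effect of position was not tested. None of the 937 lincRNA transcripts of the Y chromosome had a count in either library. Over all 1959 Ensembl IDs of the Y chromosome, 3 had 32 counts in replicate 1 and 0 had any in replicate 2. The cells were female, and the cause of the missing Y counts was not tested. The 937 Y transcripts hold 509 of the 7065 kilobases of own bases of lincRNA transcripts. They remain in all lincRNA shares and densities above, which are lower for it. For these lincRNA transcripts, the median share of 31-base stretches found in another gene was 100%, against 0.0739% for the transcripts without a count in replicate 1 as a whole.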

How the data were processed

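Both RNA-seq libraries of differentiated FGSCs, each of 5 to 8 cells, belong to 1 group by their titles. Each ID has a raw whole-number count, deposited by the authors for each replicate with no normalization. Per the labels, the submitters' processing notes name FastQC, Trim Galore, HISAT2 2.2.1, featureCounts and mm10, whereas the study's methods describe TopHat and Cufflinks. The gene annotation used for counting is not given in the sources used here. Reads on shared bases appear to have been largely uncounted: of 10320 Ensembl IDs without own bases, 3 were counted in replicate 1 and 0 in replicate 2. The 466 lincRNA transcripts with over 0 to 50 own bases still held 5 and 11 counts, so the exact counting rule is not known. Own bases are exonic bases that belong to no other GENCODE M21 transcript on either strand.

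IDs were matched to GENCODE M21 (GRCm38) by stable ID without version, which placed 75192 of 76066 Ensembl IDs. The 874 others held 163 and 60 counts and were not assigned. Protein accessions carry no gene name. For marker genes, the counts of all accessions listed between the flanking annotated transcripts were added, as the most the marker can hold, provided that its accession stands there. A gene's count is the sum over its lincRNA transcripts, and CPM is relative to all counts of the library. FPKM also uses the union of its exons. Values over Ensembl IDs were set against the 95% Wilson, exact Poisson or exact conditional binomial interval, and no test was run. Depth was matched by the exact hypergeometric expectation. The functions were tested on simulated data.

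The members and lists were chosen with earlier results of these data known. The genes named are all members of the role lists, the 15 with most counts in each replicate and those with at least 3 counts in both. Places 14 and 15 in replicate 2 were taken from 12 genes tied at 6 counts, by their count in replicate 1 and then by symbol. Promoter windows, neighbours and A runs were looked at after the counts had been seen. A plan to use repeat-masked bases was not run, and 31-base stretches shared with another gene were used instead. Scripts ran in Python 3.11.15 with scipy 1.17.1, pandas 2.3.3, numpy 2.4.6 and, for plots, matplotlib 3.10.9.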

Additional observations from a re-analysis of the deposited data

How the results depend on the processing

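With 2 libraries of 1 group, the values are means of both replicates for shares and the number of members counted in either replicate for counts. No paired analysis was possible because the design has 1 group. Of 51 alternatives over 10 results, 37 changed the value by less than the spread between the replicates, or a count by less than 1.5 times. This tally is no measure of stability. A share is a mean of 2 replicates, so leaving out 1 always moves it by less than their spread. The spread was also wide, as for the share of library counts, at 0.696% and 6.37%. The share of library counts was 3.53%, and rose to 8.73% over Ensembl IDs only (5.01% and 12.5% in replicates 1 and 2). Left-out replicates gave 0.696% to 6.37%. The number of genes with a count was 724, and fell to 222 at 3 counts and to 347.8 with replicate 1 at the total of replicate 2, as these settings leave fewer counts. It was 324 to 451 with a replicate left out. For transcripts it was 753, 231 at 3 counts and 326 to 473 with a replicate left out. The share of the 10 leading genes was 24.8% to 69.8% with a replicate left out, and that of members with exon overlap 3.66% to 62.2%. Detection of lincRNA transcripts was 4.53% on average, 1.33% at 3 counts, 5.99% for transcripts with at least 200 own bases, and 3.70% to 5.37% with a replicate left out. The difference in median own bases was 635.2 bases between transcripts with and without a count, and 567.2 bases at 3 counts. The Pearson correlation of 0.041 became -0.42 over genes counted in either replicate, since these lie mostly on an axis, and 0.096 for CPM without length; the cause of the latter was not tested. Added after seeing the data, the difference in detection by CG pairs was 6.73 percentage points, with 1.29 to 12.2 when a replicate was left out; with at least 15 CG pairs it was 12.7 in replicate 1 and -0.34 in replicate 2. The difference beside protein-coding starts was 2.60 percentage points, 6.17 without replicate 2 and -0.97 without replicate 1, which at 3 counts became 0.90. Replicate 2 limits every statement on members at 0 there to levels above 241 CPM.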
